A study of Mus musculus with 17 samples.

Results

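The response of mouse epididymal adipose tissue to a high-fat diet was compared between Cpa3Cre/+ mice, which lack mast cells, and wild-type Cpa3+/+ mice. The comparison asks how alike the diet responses of the 2 genotypes were, gene by gene, and what size of difference between them these data can exclude. It used 11 of the 17 arrays of the study, chosen by the genotype and diet in the sample titles, and the 17166 genes measured on them. The groups were Cpa3Cre/+ HFD (3 arrays), Cpa3Cre/+ LFD (3 arrays), Cpa3+/+ HFD (2 arrays) and Cpa3+/+ LFD (3 arrays), all on the WBB6F1 background, a cross of WB and C57Bl/6. HFD animals were kept for 12 weeks on food with 60% of its energy from fat. LFD animals received chow with 6% fat for the same time and had fasted for 5 h, as the HFD animals had, when the tissue was collected. The diets thus differed in kind as well as in fat. The other 6 arrays came from KitW/Wv mice on both diets. They were normalized and filtered together with the 11, and counted in the choice of probe for each gene. Otherwise they entered only the estimate of the spread and a single comparison. In Cpa3Cre/+ mice the Cre recombinase gene is placed in 1 copy of Cpa3 and driven by its promoter, so the genotype joins the loss of mast cells to the presence of Cre and of an altered Cpa3 allele, which cannot be told apart here. The Cpa3 promoter is also active in basophils and in some blood progenitors.

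Visceral fat that expands on a high-fat diet is known to gain macrophages, many of which take up lipid and carry the receptor TREM2, while genes of fat cell metabolism decline. Mast cells are resident immune cells that store histamine and proteases (carboxypeptidase A3, chymases, tryptases) in granules and carry the IgE receptor and the receptor KIT. They have been proposed to take part in inflammation of adipose tissue, which is the setting of this comparison.

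Across the 11 arrays, 46.9% to 51.7% of probes were detected, with median deposited intensities of 98.6 to 107 and an estimated background mean from 93.7 up to 100.5. Within a group, arrays correlated with r of 0.938 to 0.986 (10 pairs). Levels are given as log2 of the background-corrected, quantile-normalized intensity, and a diet effect is the mean of HFD minus the mean of LFD on that scale, so that 1 is a 2-fold change. Adipocyte genes checked the tissue: Adipoq and Cidec, which encode adiponectin and a lipid droplet protein, averaged 13.65 and 14.00 in Cpa3Cre/+ HFD arrays. A few arrays stood apart in their markers of other tissues, summed here as the mean log2 deviation of a marker list from its average over the 11 arrays. Epididymis and testis markers were at 2.89 in Cpa3+/+ LFD array 3, against -0.47 to 0.25 on the other 10 arrays. Cpa3Cre/+ LFD array 2 had mesothelial markers at 0.98 and skeletal muscle markers at 1.29, and Cpa3Cre/+ HFD array 2 had red blood cell markers at -1.49. Some results are also given below with Cpa3Cre/+ LFD array 2 and Cpa3+/+ LFD array 3, both arrays that carried markers of other tissues, left out. Whether the numbered samples come from different animals is not stated in the labels, so the p-values reflect sample-to-sample spread, which may be technical.

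The targeted gene and the mast cell genes checked the labels. Cpa3 had 4.28, 5.21 and 4.41 in Cpa3Cre/+ HFD arrays and 4.21, 4.09 and 4.30 in Cpa3Cre/+ LFD arrays, against 8.27 and 8.54 in Cpa3+/+ HFD arrays and 8.21, 7.66 and 7.32 in Cpa3+/+ LFD arrays. It was near background in every Cpa3Cre/+ array, with detection on 1 of 6, and high in every Cpa3+/+ array. In bulk tissue, fewer cells of a type and less RNA per cell cannot be told apart. The 250 bases before its start are shown because this promoter drives Cre, with AGATAA, a core letter string of GATA factor sites, in capitals.
Cpa3 promoter, GRCm38.p6, chr3:20242182-20242431, minus strand: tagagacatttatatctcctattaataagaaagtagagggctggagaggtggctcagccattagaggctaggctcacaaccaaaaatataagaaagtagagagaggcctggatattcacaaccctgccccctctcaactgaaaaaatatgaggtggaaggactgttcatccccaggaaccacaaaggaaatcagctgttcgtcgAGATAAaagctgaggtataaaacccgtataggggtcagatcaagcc
The sequence is from RefSeq. On either strand, 10.3% of 27025 mouse promoters hold these letters in the same window.

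No gene passed the test of a difference between the diet responses. The interaction, the diet effect in Cpa3Cre/+ minus that in Cpa3+/+, passed the threshold in 0 of 17166 genes (0%; limma, Benjamini-Hochberg adjusted p below 0.05). The smallest adjusted p was 0.563, for Oxnad1, an oxidoreductase gene. An unadjusted p below 0.05 was held by 686 genes (4.00%), with 359 higher (2.09%) and 327 lower (1.90%). The same kind of interaction for KitW/Wv minus Cpa3+/+, which shares the Cpa3+/+ arrays, passed in 152 genes (0.885%) by limma, 15 higher (0.0874%) and 137 lower (0.798%). That count fell to 27 without Cpa3+/+ HFD array 1 and to 34 without Cpa3+/+ HFD array 2, and the difference between the 2 interactions was not tested here. The count for Cpa3Cre/+ was 0 with each of the 11 arrays left out in turn, and then 428 to 1116 genes had an unadjusted p below 0.05. The lowest count came without Cpa3+/+ HFD array 2 and the highest without Cpa3+/+ LFD array 2.

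The intervals show what size of difference such a result leaves room for. The 95% interval of the interaction reached 0.72 to each side of its estimate in the median gene, a factor of 1.65. It reached a factor of 1.41 in the tenth percentile of genes and 2.40 in the ninetieth. A difference of 2-fold or more was excluded for 8827 genes (51.4%; 2 one-sided limma tests against 1 and -1 on the log2 scale, Benjamini-Hochberg adjusted p below 0.05). A difference of 4-fold or more was excluded for 16148 genes (94.1%), and of 1.5-fold for 0 genes by the adjusted test, although 1197 had a 95% interval inside that limit. Intervals widened to cover all genes at once reached a factor of 5.66 in the median gene. The 2-fold exclusion held for 3514 of the 5722 dimmest genes, 1671 of the 5722 in the middle and 3642 of the 5722 brightest. Middle levels thus had the widest intervals, with a median factor of 1.85, against 1.59 for dim and 1.56 for bright genes. Among the dimmest genes the 2 diet effects had an r of 0.21 and shared their sign in 54.4%. Among the brightest these were 0.81 and 77.1%. Levels near background leave little room to differ, so an exclusion among dim genes does not show that the responses were alike.

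Genes that respond to the diet were asked the same question. They were chosen by the common diet effect, the mean of both genotypes' effects weighted by precision (0.556 for Cpa3Cre/+), which the model makes uncorrelated with the interaction. By limma, 2564 genes passed (14.9%), of which 1501 rose (8.74%) and 1063 fell (6.19%). A 2-fold difference between genotypes was excluded for 1261 of the 2564 (49.2%) and a 4-fold difference for 2498 (97.4%), close to the shares over all genes. Among the 868 diet genes with a common effect of at least 2-fold, 176 (20.3%) had a 2-fold difference excluded and 809 (93.2%) a 4-fold one. Their median interval reached a factor of 1.88. The plot of excluded sizes shows this as a curve shifted to larger differences. The precision rested on the smallest group, since the 1261 became 317 without Cpa3+/+ HFD array 1, 408 without Cpa3+/+ HFD array 2 and 761 without Cpa3Cre/+ HFD array 1.

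**Figure D1:**
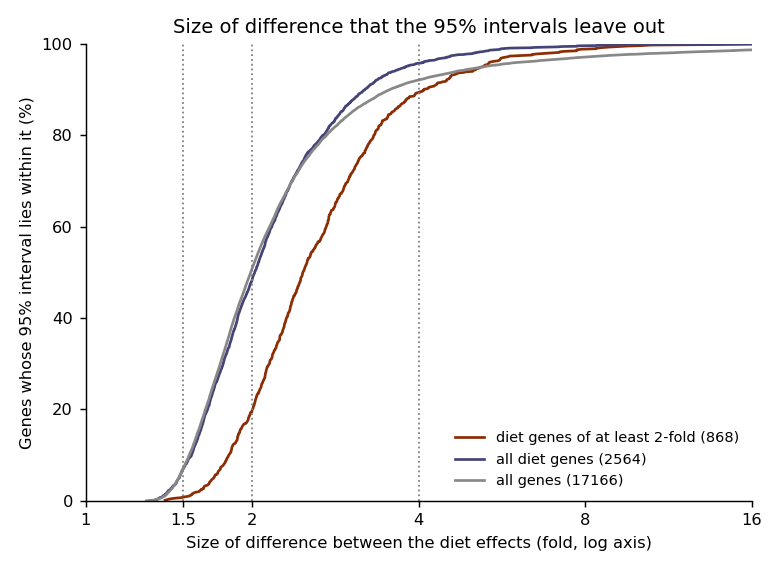
Share of genes (y axis, %) whose 95% interval of the interaction lies within a given fold difference (x axis, log scale), for the 868 diet genes of at least 2-fold, all 2564 diet genes and all 17166 genes. At 2-fold, the curves of all diet genes and of all genes stand at 48.4% and 50.9%, and that of the strongly changed diet genes at 19.7%.

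Genes called in one genotype mostly moved the same way in the other. The diet effects of the genotypes had no array in common, so the sign of an effect in the other genotype came from separate arrays. The calls in both genotypes used the same estimate of each gene's spread, taken over all arrays in the fit. A gene with a low spread is thus favoured in both, and the shared calls are not independent of each other. Of the 798 genes past the threshold in Cpa3+/+ (4.65% of all genes), 785 (98.4%) had the same sign in Cpa3Cre/+ and 626 (78.4%) also passed there with that sign. Of the 1562 past the threshold in Cpa3Cre/+ (9.10%), 1515 (97.0%) had the same sign in Cpa3+/+ and 626 (40.1%) also passed. Over all genes, 67.2% had the same sign in both. The 626 shared calls fell to 208 without Cpa3+/+ HFD array 1 and 232 without Cpa3+/+ HFD array 2, with 229 and 243 calls in Cpa3+/+, and the Cpa3Cre/+ calls fell to 946 without Cpa3Cre/+ HFD array 2. In these and the other fits with an array left out, the shares with the same sign stayed between 94.2% and 98.8%.

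Genes called in only one genotype also shared their sign. The 935 genes that passed only in Cpa3Cre/+ had the same sign in Cpa3+/+ in 889 cases (95.1%). The 530 of them that rose had a median effect of 1.02 in Cpa3Cre/+ and 0.61 in Cpa3+/+, and the 405 that fell had -0.82 and -0.48. By limma, 0 of the 935 passed the interaction, 140 had an unadjusted p below 0.05, and 376 had a 2-fold difference excluded. The 171 that passed only in Cpa3+/+ had the same sign in Cpa3Cre/+ in 159 cases. Here the gap was reversed, with medians of 1.02 in Cpa3+/+ and 0.48 in Cpa3Cre/+ for the 109 that rose. The 62 that fell had -1.01 and -0.48. A choice of genes that pass in one genotype and not in the other favours such gaps and small interaction p-values. A group of 2 arrays in Cpa3+/+ gives a standard error of 0.25 in the median gene, against 0.23 in Cpa3Cre/+. The scatter of both diet effects shows the diet genes lying along the line of equal effects.

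**Figure D2:**
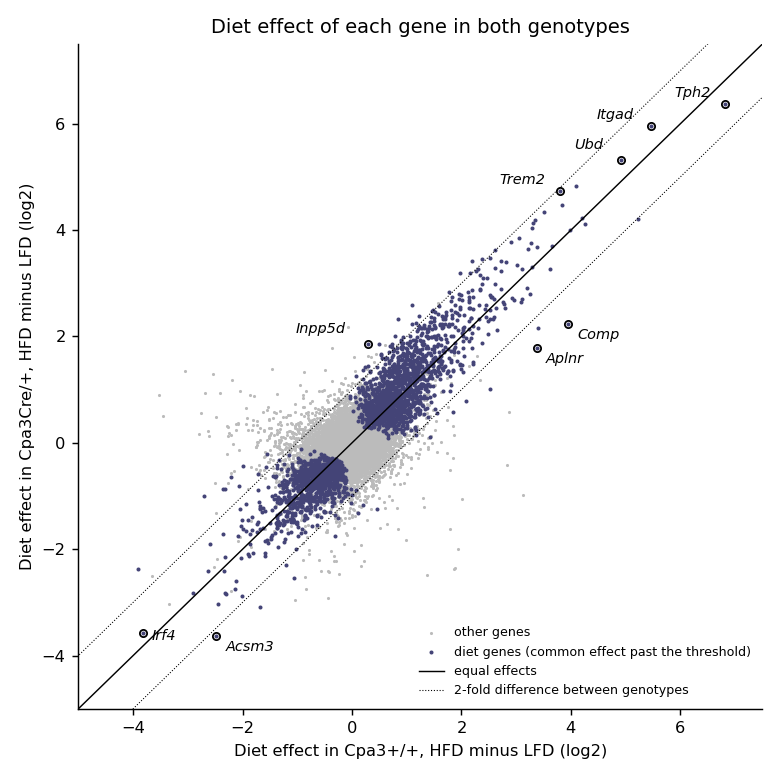
Diet effect (HFD minus LFD, log2) of each gene in Cpa3Cre/+ (y axis) against Cpa3+/+ (x axis). Dark points are the 2564 diet genes, grey points the other genes, the solid line equal effects and the dotted lines a 2-fold difference. Tph2, Itgad, Ubd and Trem2 lie at the upper end near the solid line, and Comp, Aplnr, Acsm3 and Inpp5d beside or beyond a dotted line.

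Strong rises, chosen on both genotypes together, were more often larger in Cpa3Cre/+. The 649 diet genes with a common rise of at least 2-fold had a median effect of 1.56 in Cpa3Cre/+ and 1.28 in Cpa3+/+, and 481 of them (74.1%) were larger in Cpa3Cre/+. Their median interaction was 0.31, against -0.0039 over all genes, of which 49.6% had a positive interaction. Rises chosen in Cpa3+/+ alone had medians of 1.44 in Cpa3Cre/+ and 1.28 in Cpa3+/+ but a median interaction of 0.022, near that of all genes, and rises chosen in Cpa3Cre/+ alone had 1.26 and 0.95 with a median interaction of 0.32. A choice in one genotype favours larger values there. Genes are not independent replicates, so these medians carry no test.

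The arrays themselves show the same order. The mean level of the strong rises, relative to the average of the 11 arrays, was 0.98, 1.17 and 0.89 in Cpa3Cre/+ HFD arrays and -0.66, -0.85 and -0.74 in Cpa3Cre/+ LFD arrays. It was 0.76 and 0.70 in Cpa3+/+ HFD arrays and -0.85, -0.76 and -0.65 in Cpa3+/+ LFD arrays. All Cpa3Cre/+ HFD arrays stood above both Cpa3+/+ HFD arrays, and the LFD arrays of the genotypes overlapped. Cpa3Cre/+ HFD array 2 stood highest, and without it the median interaction of the strong rises was 0.20. With both arrays that carried markers of other tissues left out it was 0.23. With median scaling in place of quantile normalization the median interaction over all genes shifted to 0.11, and that of the strong rises was 0.35 above it.

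For genes that fell there was no stable order. The 219 falls of at least 2-fold had medians of -1.31 in Cpa3Cre/+ and -1.21 in Cpa3+/+, with a median interaction of -0.12 that turned to 0.035 without Cpa3+/+ LFD array 3 and to 0.0063 with median scaling, and was -0.23 without Cpa3Cre/+ LFD array 2 and -0.027 without Cpa3Cre/+ HFD array 2. Falls chosen in Cpa3+/+ had a median of -0.96 in Cpa3Cre/+ and -1.09 in Cpa3+/+.

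Most general macrophage genes rose in Cpa3Cre/+, and 10 of 20 in Cpa3+/+. Of 20 general macrophage genes, 17 rose in Cpa3Cre/+ (5.88% of all genes rose) and 10 in Cpa3+/+ (3.44%), with 0 falls in either. Their median diet effects were 1.62 in Cpa3Cre/+ and 1.08 in Cpa3+/+, against -0.023 and -0.019 over all genes. The interaction was positive in 19 of 20, with a median of 0.54 and a range of -0.17 to 1.01, and passed in 0 by limma. An unadjusted p below 0.05 was held by 7 of the 20, against 4.00% of all genes. A 2-fold difference was excluded for 3 (51.4% of all genes) and a 4-fold difference for all 20 (94.1% of all genes). The median lay between 0.45 and 0.66 with any array left out. Of 10 resident macrophage genes, 2 rose in Cpa3Cre/+ (Mrc1, the mannose receptor, and Clec10a, a lectin) and 0 in Cpa3+/+ by limma, with median diet effects of -0.080 and -0.033.

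Cd68, a glycoprotein of macrophage lysosomes, had 12.09, 12.65 and 11.77 in Cpa3Cre/+ HFD arrays and 7.93, 8.14 and 9.57 in Cpa3Cre/+ LFD arrays. It had 11.83 and 11.56 in Cpa3+/+ HFD arrays and 8.95, 9.35 and 8.96 in Cpa3+/+ LFD arrays. The diets were far apart in both genotypes, whose arrays overlapped on each diet. The diet effects were 3.62 in Cpa3Cre/+ (12.3-fold) and 2.61 in Cpa3+/+ (6.11-fold), and the interaction was 1.01 (95% interval -0.15 to 2.17; limma adjusted p = 0.998). Without Cpa3Cre/+ LFD array 3, which stood highest of its group, it was 1.52.

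Ctss, the protease cathepsin S, had 9.87, 9.58 and 10.19 in Cpa3Cre/+ HFD arrays and 7.11, 7.07 and 7.24 in Cpa3Cre/+ LFD arrays. It had 9.51 and 9.26 in Cpa3+/+ HFD arrays and 6.33, 7.06 and 7.07 in Cpa3+/+ LFD arrays. Here the genotypes moved alike, by 2.74 and 2.56, and a 2-fold difference was excluded (interaction 0.18, 95% interval -0.53 to 0.89; adjusted p = 0.033 for exclusion by limma). Adgre1, an adhesion receptor of the macrophage surface, rose by 2.40 in Cpa3Cre/+ and 1.73 in Cpa3+/+, and Mpeg1, a pore-forming protein of macrophages, by 2.75 and 2.14. Their interactions were 0.67 (0.03 to 1.32) and 0.61 (0.00 to 1.22), with 2-fold differences inside both intervals. Csf1r, the receptor for the macrophage growth factor CSF1, had an effect of 1.13 in Cpa3Cre/+ (adjusted p = 0.000542) and 0.50 in Cpa3+/+ (adjusted p = 0.179), with an interaction of 0.63 (0.09 to 1.18).

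Lipid-associated macrophage genes rose in 12 of 17 cases in Cpa3Cre/+ and 7 of 17 in Cpa3+/+, against 5.88% and 3.44% of all genes. Their median diet effects were 1.37 and 1.35. Trem2, a lipid receptor, had 11.88, 12.12 and 11.74 in Cpa3Cre/+ HFD arrays and 6.88, 6.95 and 7.71 in Cpa3Cre/+ LFD arrays, against 11.23 and 11.26 in Cpa3+/+ HFD arrays and 6.97, 7.92 and 7.41 in Cpa3+/+ LFD arrays. All 3 Cpa3Cre/+ HFD arrays lay above both Cpa3+/+ HFD arrays, and the LFD arrays overlapped. The interaction was 0.93 (95% interval -0.02 to 1.87; limma adjusted p = 0.998), and in that interval the fold rise of Cpa3Cre/+ is 0.987 to 3.66 times that of Cpa3+/+. Itgax, the CD11c integrin chain, was not detected on LFD in either genotype, and its HFD level was higher by at least 5.01-fold in Cpa3Cre/+ and at least 3.34-fold in Cpa3+/+. Gpnmb, a glycoprotein of lipid-laden macrophages, had an interaction of 0.64 (-0.60 to 1.89), and Mmp12, macrophage elastase, 0.73 (-0.74 to 2.20). Other Gpnmb probes gave interactions of 0.64, 1.16 and 1.40. The list's median interaction of 0.40 was 0.22 without Cpa3Cre/+ LFD array 2 and 0.17 with both arrays that carried markers of other tissues left out. With both left out the interaction of Gpnmb was also 0.17 and that of Mmp12 was -0.12.

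Promoters of Trem2 and Ctss are shown because a 2-fold difference was not excluded for the first macrophage gene and was excluded for the second. Neither gene passed the interaction by limma. Capitals mark GAGGAA, core letters of the sites of the macrophage factor PU.1, or their reverse complement TTCCTC.
Trem2 promoter, GRCm38.p6, chr17:48346151-48346400, plus strand: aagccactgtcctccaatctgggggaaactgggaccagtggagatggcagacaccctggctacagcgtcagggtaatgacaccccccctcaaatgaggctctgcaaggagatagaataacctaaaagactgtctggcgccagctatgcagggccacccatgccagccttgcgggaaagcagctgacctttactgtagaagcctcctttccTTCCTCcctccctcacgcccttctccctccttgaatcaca
Ctss promoter, GRCm38.p6, chr3:95526536-95526785, plus strand: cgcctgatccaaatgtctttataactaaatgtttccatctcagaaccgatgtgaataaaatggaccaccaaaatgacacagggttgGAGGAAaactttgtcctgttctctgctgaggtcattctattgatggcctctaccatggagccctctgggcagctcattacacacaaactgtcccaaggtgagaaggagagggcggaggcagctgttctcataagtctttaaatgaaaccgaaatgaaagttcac
Both sequences are from RefSeq and end at the base before the gene's start. On either strand, GAGGAA was in 23.1% of 27025 promoters, in 26.3% of the 1084 promoters matched to diet genes that rose, and in 21.8% of the 792 matched to those that fell. It was in 10 of 15 matched promoters of general macrophage genes and in 4 of 12 of lipid-associated macrophage genes. A match describes letters and does not show binding.

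**Figure D3:**
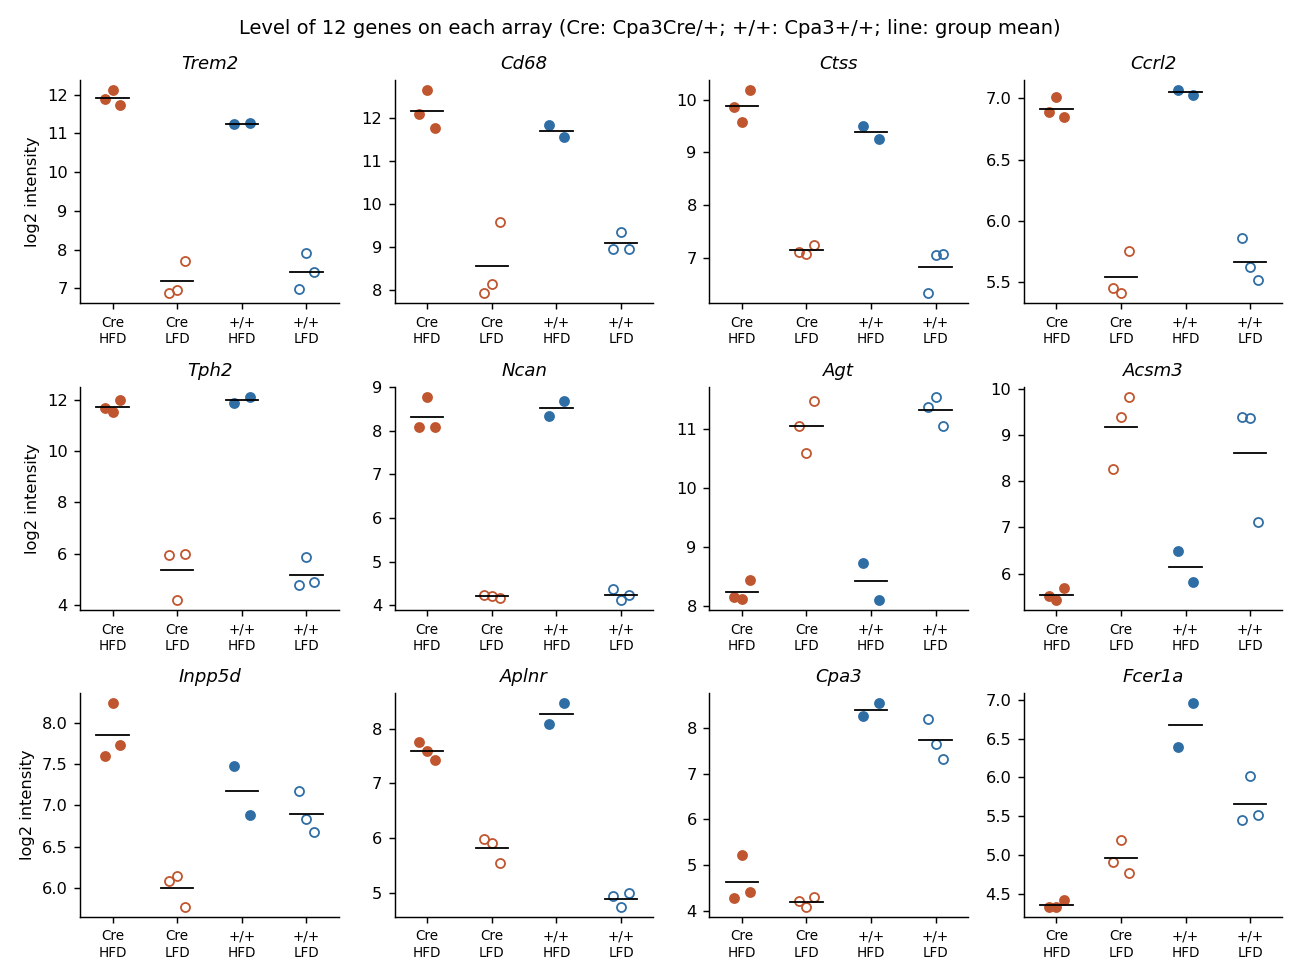
Log2 intensity (y axis) of 12 genes on each of the 11 arrays, with Cpa3Cre/+ HFD, Cpa3Cre/+ LFD, Cpa3+/+ HFD and Cpa3+/+ LFD arrays from left to right and a line at each group mean. Trem2, Cd68, Ctss, Ccrl2, Tph2 and Ncan are high on HFD in both genotypes, Agt and Acsm3 low, Inpp5d and Aplnr move unequally, and Cpa3 is near background in Cpa3Cre/+.

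Antigen presentation, cell division and lysosome lists also held many genes that rose, against 5.88% of all genes in Cpa3Cre/+ and 3.44% in Cpa3+/+. MHC class II genes, which present peptides to T cells, rose in 8 of 10 cases in Cpa3Cre/+ and 3 of 10 in Cpa3+/+, with medians of 1.41 and 0.82 and a positive interaction in 9 of 10. Cell division genes rose in 13 of 15 and 9 of 15, with medians of 1.48 and 1.23. Birc5, which encodes survivin, had diet effects of 2.35 in Cpa3Cre/+ and 2.17 in Cpa3+/+, and a 2-fold difference was excluded (adjusted p = 0.027 by limma). Lysosome genes rose in 13 of 18 and 11 of 18 cases, with medians of 1.04 and 0.82. Against 51.4% of all genes, a 2-fold difference was excluded for 11 of these 18 lysosome genes. Their acid hydrolase Glb1, beta-galactosidase, had 1.96 in Cpa3Cre/+ and 2.07 in Cpa3+/+. None of these 3 lists had a member past the interaction threshold.

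Extracellular matrix genes rose in 15 of 24 cases in Cpa3Cre/+ and 5 of 24 in Cpa3+/+, against 5.88% and 3.44% of all genes. The list had median diet effects of 1.16 and 0.90. Their median interaction of 0.27 was 0.083 without Cpa3Cre/+ HFD array 2, the array with the lowest red blood cell markers, 0.12 without Cpa3+/+ HFD array 2, 0.16 without Cpa3Cre/+ LFD array 2 and 0.49 without Cpa3Cre/+ HFD array 3. Col1a1, a chain of collagen I, had 10.88, 12.12 and 10.38 in Cpa3Cre/+ HFD arrays and 9.16, 9.36 and 9.30 in Cpa3Cre/+ LFD arrays, against 10.55 and 10.21 in Cpa3+/+ HFD arrays and 9.41, 9.20 and 9.76 in Cpa3+/+ LFD arrays. Cpa3Cre/+ HFD array 2 stood far above every other array, and without it the interaction of 0.94 was 0.44. Comp, a glycoprotein of cartilage matrix, leaned the other way, with a rise of 2.23 in Cpa3Cre/+ and 3.96 in Cpa3+/+ (interaction -1.72, 95% interval -2.87 to -0.57; limma adjusted p = 0.998). A second Comp probe had an interaction of -0.33.

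Among DNA replication genes, 5 of 17 rose in Cpa3Cre/+ and 3 of 17 in Cpa3+/+, against 5.88% and 3.44% of all genes. Mcm6, a subunit of the replicative helicase, had 8.49, 8.88 and 8.43 in Cpa3Cre/+ HFD arrays and 7.03, 6.76 and 7.28 in Cpa3Cre/+ LFD arrays, against 7.88 and 7.85 in Cpa3+/+ HFD arrays and 7.09, 7.03 and 7.67 in Cpa3+/+ LFD arrays. The HFD arrays of the genotypes did not overlap, and the interaction of 0.97 (95% interval 0.33 to 1.61) did not pass (limma adjusted p = 0.998). Its other 2 probes gave smaller interactions, of 0.44 and 0.29. Chemokine and cytokine genes rose in 6 of 19 cases in Cpa3Cre/+ and 3 of 19 in Cpa3+/+, beside those same 5.88% and 3.44%. Ccl9, a chemokine for myeloid cells, rose by 1.81 and 0.93 (interaction 0.88, 0.29 to 1.48), and Il1rn, the antagonist of interleukin 1, by 3.24 and 2.72 (interaction 0.52, -0.25 to 1.29). Other Il1rn probes gave interactions of -0.30 and, near background, 0.055.

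The 10 largest common rises were chosen among diet genes whose HFD and LFD arrays did not overlap in either genotype. They passed in both genotypes by limma, which this choice favours, but a 2-fold difference between genotypes was excluded only for Ncan. Tph2, the neuronal tryptophan hydroxylase that starts serotonin synthesis, had 11.69, 11.55 and 12.00 in Cpa3Cre/+ HFD arrays and 5.95, 4.20 and 5.97 in Cpa3Cre/+ LFD arrays, against 11.87 and 12.13 in Cpa3+/+ HFD arrays and 4.76, 5.87 and 4.91 in Cpa3+/+ LFD arrays. The genotypes overlapped on both diets, and the interaction was -0.44 (95% interval -1.82 to 0.93), wide enough to hold a 2-fold difference. Ncan, the proteoglycan neurocan, was not detected on LFD, and its HFD level was higher by at least 15.5-fold in Cpa3Cre/+ and at least 17.8-fold in Cpa3+/+. Its HFD arrays read 8.09, 8.78 and 8.09 in Cpa3Cre/+ and 8.33 and 8.69 in Cpa3+/+, and the 2-fold exclusion (limma adjusted p = 0.027) rests on LFD values at background. Lipf, gastric lipase, leaned towards Cpa3+/+, with rises of 4.20 in Cpa3Cre/+ and 5.23 in Cpa3+/+ (interaction -1.03, 95% interval -2.35 to 0.29). Itgad, an integrin chain of macrophages, Ubd, a ubiquitin-like protein, and the choline transporter Slc5a7 had interactions of 0.51, 0.41 and 0.03, each with an interval that reached over 1 to each side of its estimate, and those of Ubd and Slc5a7 turned negative under some alternatives. Slc5a7 was detected on 0 of 3 Cpa3Cre/+ LFD and 1 of 3 Cpa3+/+ LFD arrays, so its interaction rests on levels near background.

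Among diet genes of at least 2-fold, 5 were named by rule for the interval of the interaction closest to 0. That choice itself favours narrow intervals near 0, and the intervals were not adjusted for it. Ccrl2, a receptor that binds chemerin, had 6.89, 7.01 and 6.85 in Cpa3Cre/+ HFD arrays and 5.45, 5.41 and 5.75 in Cpa3Cre/+ LFD arrays, against 7.07 and 7.03 in Cpa3+/+ HFD arrays and 5.86, 5.62 and 5.52 in Cpa3+/+ LFD arrays. The diets separated fully, the Cpa3Cre/+ HFD arrays lay just below the Cpa3+/+ HFD arrays, and the LFD arrays overlapped. Its effects were 1.38 in each genotype, and the unadjusted interval of the difference, -0.49 to 0.48, reached a factor of 1.40 either way. By the adjusted limma test of exclusion, a 2-fold difference was excluded for Ccrl2 (adjusted p = 0.010). A 1.5-fold difference was not (adjusted p = 0.298). Cstb, an inhibitor of cathepsins, had 1.22 in Cpa3Cre/+ and 1.27 in Cpa3+/+ (-0.50 to 0.41). Lmo2, a transcription cofactor of blood cells, St8sia4, a polysialic acid synthase, and Gde1, a glycerophosphodiesterase that fell, had intervals of -0.33 to 0.52, -0.53 to 0.54 and -0.58 to 0.46.

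**Figure D4:**
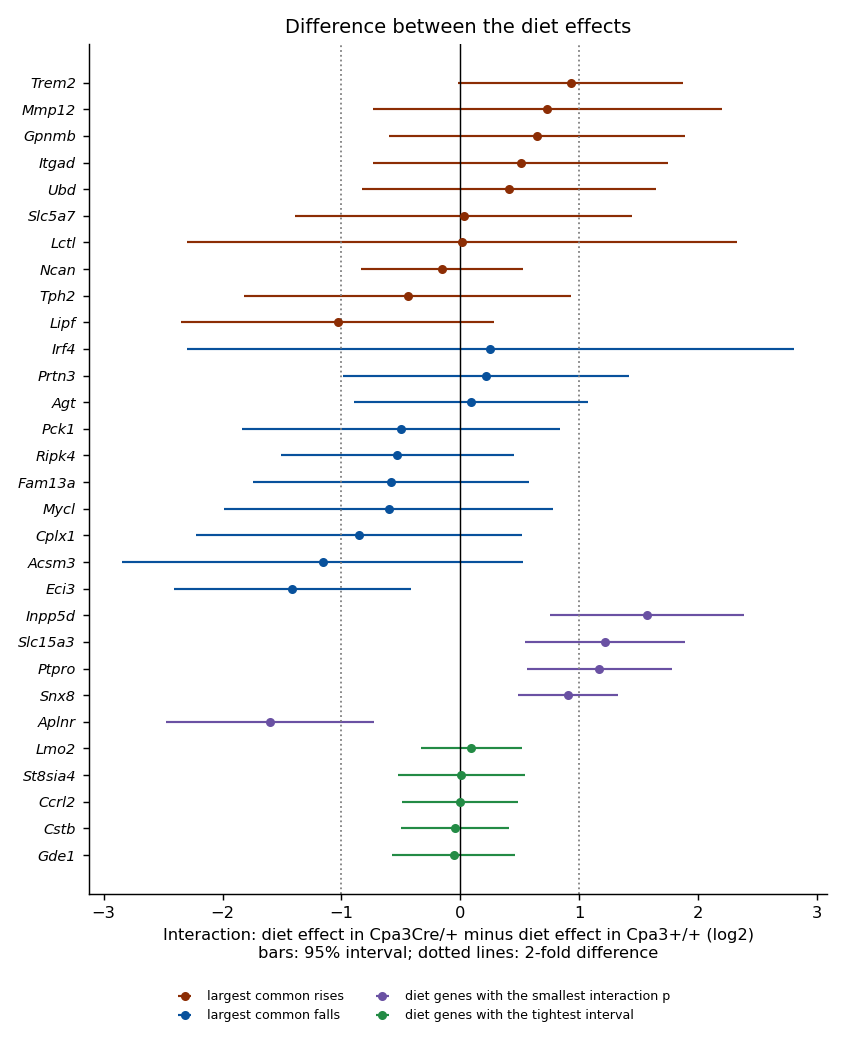
Interaction (diet effect in Cpa3Cre/+ minus that in Cpa3+/+, log2, x axis) with its 95% interval for the 10 largest common rises, the 10 largest common falls, and the diet genes with the smallest interaction p and with the interval closest to 0. Dotted lines mark a 2-fold difference. Most intervals of the largest changes cross 0 and reach past a dotted line, and those of Ccrl2, Cstb, Lmo2, St8sia4 and Gde1 stay well inside both.

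The 10 largest common falls, chosen in the same way as the rises, also passed in both genotypes by limma, which that choice favours. A 2-fold difference was excluded for 0 of them. Agt, angiotensinogen, had 8.15, 8.11 and 8.43 in Cpa3Cre/+ HFD arrays and 11.06, 10.60 and 11.48 in Cpa3Cre/+ LFD arrays, against 8.73 and 8.10 in Cpa3+/+ HFD arrays and 11.38, 11.55 and 11.05 in Cpa3+/+ LFD arrays. The diets separated in both genotypes, which overlapped on each diet, and the interaction was 0.09 (-0.90 to 1.08). Pck1, which makes glycerol precursors in fat, fell by 2.83 in Cpa3Cre/+ and by 2.33 in Cpa3+/+ (interaction -0.50, -1.84 to 0.84). Acsm3, an acyl-CoA synthetase, fell by 3.64 and by 2.48 on the log2 scale, and its interaction of -1.16 was -0.29 with both arrays that carried markers of other tissues left out. Eci3, an enoyl-CoA isomerase of fatty acid oxidation, had 6.29, 6.26 and 6.59 in Cpa3Cre/+ HFD arrays and 9.02, 10.24 and 9.15 in Cpa3Cre/+ LFD arrays, against 7.03 and 7.41 in Cpa3+/+ HFD arrays and 8.95, 9.47 and 8.28 in Cpa3+/+ LFD arrays. Its Cpa3Cre/+ HFD arrays lay below both Cpa3+/+ HFD arrays, and the interaction was -1.41 (95% interval -2.41 to -0.42; limma adjusted p = 0.998). With both arrays that carried markers of other tissues left out it was -0.72.

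Of the 34 lists, oxidative phosphorylation had the largest share of members with a 2-fold difference excluded. Of 19 oxidative phosphorylation genes, 2 fell in Cpa3Cre/+ (3.22% of all genes fell) and 0 in Cpa3+/+ (1.21%) by limma. Their median diet effects were -0.25 in Cpa3Cre/+ and -0.13 in Cpa3+/+. With so little response, an exclusion does not show that the responses were alike. A 2-fold difference was excluded for 17 of the 19, against 51.4% of all genes. It was excluded for 12 of 18 fatty acid oxidation genes and for 11 of 16 glutathione and antioxidant genes, of which 7 fell in Cpa3Cre/+ and 4 in Cpa3+/+. Gpx3, a secreted glutathione peroxidase, fell by 1.31 and by 1.32, with an interval of the difference of -0.73 to 0.74. Of 15 cholesterol synthesis genes 4 rose in each genotype, against 5.88% of all genes in Cpa3Cre/+ and 3.44% in Cpa3+/+, and 7 had a 2-fold difference excluded. Dhcr7, the last enzyme of the pathway, had 1.73 in Cpa3Cre/+ and 1.81 in Cpa3+/+. The adipokine gene Lep, leptin, rose by 1.89 and 1.74 (interaction 0.15, -1.08 to 1.39; -0.54 with both arrays that carried markers of other tissues left out). Adipoq had an interaction of -0.0037 (-0.40 to 0.39).

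**Figure D5:**
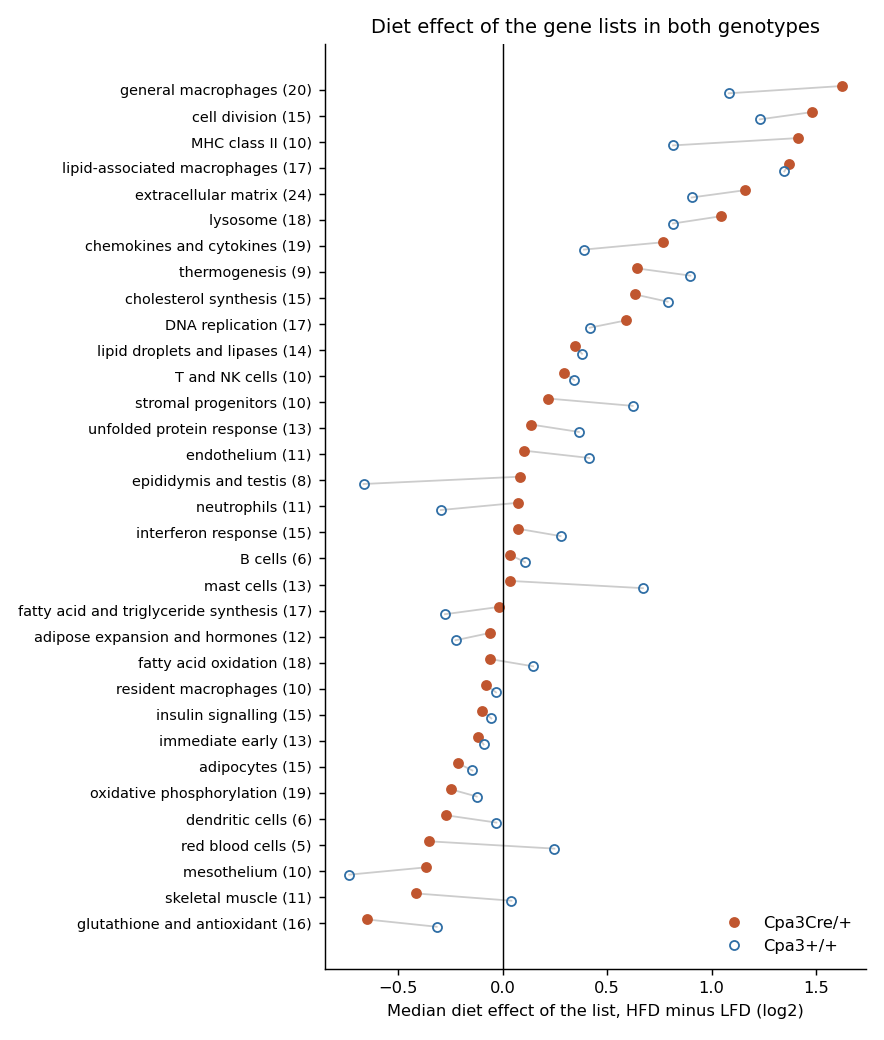
Median diet effect (HFD minus LFD, log2, x axis) of each gene list in Cpa3Cre/+ (filled) and Cpa3+/+ (open), with the number of measured genes in brackets. General macrophages stand at 1.62 and 1.08, cell division at 1.48 and 1.23, and oxidative phosphorylation at -0.25 and -0.13.

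The genes that leaned most towards a difference had small p-values that did not pass. Oxnad1 had 4.93, 5.02 and 4.92 in Cpa3Cre/+ HFD arrays and 6.43, 6.20 and 5.99 in Cpa3Cre/+ LFD arrays, against 5.62 and 5.96 in Cpa3+/+ HFD arrays and 5.27, 5.67 and 5.09 in Cpa3+/+ LFD arrays. It fell in Cpa3Cre/+ (-1.25, limma adjusted p = 0.000609) and had 0.45 in Cpa3+/+, where the diets overlapped (interaction -1.70, 95% interval -2.31 to -1.09; adjusted p = 0.563). Its adjusted p was 0.106 at its smallest and its interaction -0.63 at its nearest to 0, with the deposited normalized values. Lmcd1, a LIM domain protein, had effects of 0.11 in Cpa3Cre/+ and 1.43 in Cpa3+/+ (interaction -1.32, adjusted p = 0.998), and its other 2 probes gave -1.39 and -1.17.

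Among diet genes of at least 2-fold, 4 of the 5 smallest interaction p-values belonged to genes with a larger rise in Cpa3Cre/+. Inpp5d, a lipid phosphatase of blood cells, had 7.60, 8.24 and 7.73 in Cpa3Cre/+ HFD arrays and 6.08, 6.14 and 5.77 in Cpa3Cre/+ LFD arrays, against 7.48 and 6.88 in Cpa3+/+ HFD arrays and 7.17, 6.84 and 6.68 in Cpa3+/+ LFD arrays. Its diets separated in Cpa3Cre/+ and overlapped in Cpa3+/+ (interaction 1.57, 0.76 to 2.39; limma adjusted p = 0.998). Slc15a3, a lysosomal transporter of histidine and peptides, had effects of 3.19 in Cpa3Cre/+ and 1.97 in Cpa3+/+, Ptpro, a receptor tyrosine phosphatase, 2.39 and 1.22, and Snx8, a sorting nexin, 1.66 and 0.75. Aplnr, the apelin receptor, had the opposite lean, with 7.75, 7.59 and 7.43 in Cpa3Cre/+ HFD arrays and 5.99, 5.91 and 5.55 in Cpa3Cre/+ LFD arrays, against 8.09 and 8.46 in Cpa3+/+ HFD arrays and 4.95, 4.75 and 4.99 in Cpa3+/+ LFD arrays. Both genotypes rose, and their arrays did not overlap on either diet (interaction -1.60, -2.47 to -0.73). The signs of these 5 interactions held under all alternatives, but with the deposited normalized values that of Inpp5d was 0.94, that of Ptpro 0.66 and that of Aplnr -0.80. A second Ptpro probe gave 0.16.

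Among the lists of other immune, vascular and mesothelial cells, 0 members passed the interaction by limma. An unadjusted p below 0.05 was held by 2 of 11 neutrophil, 3 of 11 endothelial, 2 of 6 dendritic cell, 1 of 10 T and NK cell and 1 of 10 mesothelial genes, against 4.00% of all genes. The dendritic cell genes were Itgae, an integrin chain, at 1.42 and the receptor gene Flt3 at -0.75. Other Itgae probes gave interactions from -0.45 to 0.50. Flt3 read 4.14 to 5.12, near background, and a second Flt3 probe gave 0.05. The T and NK cell gene was the NK receptor gene Klrb1c at 1.70, and the mesothelial gene was mesothelin, Msln, at 1.00. Klrb1c read 7.41 in Cpa3+/+ LFD array 3, against 4.75 and 5.03 in the other Cpa3+/+ LFD arrays. Its interaction was 0.85 at its lowest with 1 array left out and 0.63 with the deposited normalized values. Of the 11 neutrophil genes, 1 rose and 1 fell in Cpa3Cre/+, against 5.88% and 3.22% of all genes. In Cpa3+/+ 0 rose and 1 fell, against 3.44% and 1.21%. The list had median diet effects of 0.074 in Cpa3Cre/+ and -0.30 in Cpa3+/+ and a median interaction of 0.31. Prtn3, the neutrophil protease proteinase 3, fell by 2.41 in Cpa3Cre/+ and by 2.63 in Cpa3+/+. S100a8, a calcium-binding protein abundant in neutrophils, had 9.96, 10.76 and 10.54 in Cpa3Cre/+ HFD arrays and 7.94, 7.44 and 8.09 in Cpa3Cre/+ LFD arrays, against 11.39 and 11.15 in Cpa3+/+ HFD arrays and 9.45, 10.86 and 10.23 in Cpa3+/+ LFD arrays. It was lower in every Cpa3Cre/+ array than in the Cpa3+/+ arrays of its diet, with diet effects of 2.60 in Cpa3Cre/+ and 1.09 in Cpa3+/+ (interaction 1.51, 0.53 to 2.49; limma adjusted p = 0.998). S100a9, its partner, had an interaction of 2.30 (0.25 to 4.35). It read 5.33, 5.12 and 8.11 in Cpa3Cre/+ HFD arrays, and without Cpa3Cre/+ HFD array 3 the interaction was 1.34. Of 11 endothelial genes, 0 passed in either genotype by limma, and the median interaction was -0.26. It was -0.12 without Cpa3+/+ LFD array 3, -0.11 without Cpa3Cre/+ HFD array 3 and -0.39 without Cpa3Cre/+ HFD array 2. Vwf, von Willebrand factor, had effects of 0.03 in Cpa3Cre/+ and 1.63 in Cpa3+/+ (interaction -1.60, -2.87 to -0.33), Emcn, endomucin, -0.30 and 1.07, and Tek, the angiopoietin receptor, -0.35 and 0.75. The summed endothelial markers lay at -0.14 to 0.00 in Cpa3Cre/+ HFD arrays and 0.35 and 0.38 in Cpa3+/+ HFD arrays, and at -0.40 in Cpa3+/+ LFD array 3, which carried the epididymis markers. Their part in these interactions was not tested.

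For 4 mast cell protease genes the interaction sets a level near background in Cpa3Cre/+ against a measured one in Cpa3+/+. Cma2 and Mcpt4, which encode chymases, were detected on no Cpa3Cre/+ array, and Cpa3 and the tryptase gene Tpsb2 on 1 of 6. The chymase gene Cma1 was detected on 1 of 3 Cpa3Cre/+ HFD and 3 of 3 Cpa3Cre/+ LFD arrays (interaction -1.02, -1.75 to -0.29). The tryptase gene Tpsab1 was detected on all 11 arrays, with 6.04, 6.86 and 6.04 in Cpa3Cre/+ HFD arrays and 4.92, 4.81 and 5.39 in Cpa3Cre/+ LFD arrays, against 7.98 and 8.22 in Cpa3+/+ HFD arrays and 7.48, 7.37 and 7.20 in Cpa3+/+ LFD arrays. It was lower in every Cpa3Cre/+ array than in any Cpa3+/+ array, the diets separated in both genotypes, and its diet effects of 1.27 and 0.75 did not pass (limma adjusted p = 0.116 and 0.508). Mcpt4 had 8.39 and 8.67 in Cpa3+/+ HFD arrays and 8.21, 7.54 and 7.08 in Cpa3+/+ LFD arrays, which did not overlap, and its diet effect there of 0.92 did not pass (limma adjusted p = 0.0571). Of the 13 measured mast cell genes, 1 rose in each genotype, near the share of all genes (5.88% in Cpa3Cre/+ and 3.44% in Cpa3+/+), with medians of 0.03 in Cpa3Cre/+ and 0.67 in Cpa3+/+. That 1 gene was Hpgds, the hematopoietic prostaglandin D synthase, which macrophages also express, with effects of 2.24 in Cpa3Cre/+ and 1.70 in Cpa3+/+. Fcer1a, the alpha chain of the IgE receptor, had 4.34, 4.34 and 4.42 in Cpa3Cre/+ HFD arrays and 4.91, 5.20 and 4.77 in Cpa3Cre/+ LFD arrays, against 6.39 and 6.95 in Cpa3+/+ HFD arrays and 5.45, 6.02 and 5.52 in Cpa3+/+ LFD arrays. The diets separated in opposite directions in the 2 genotypes, with detection on 0 of 3 Cpa3Cre/+ HFD arrays. Kit, the stem cell factor receptor, was detected on all 11 arrays and had an interaction of 0.45 (-0.56 to 1.46). Hdc, the enzyme that makes histamine, had diet effects of 0.42 in Cpa3Cre/+ and -1.81 in Cpa3+/+, neither past the threshold (interaction 2.24, 0.38 to 4.09), and 11.34 in Cpa3+/+ LFD array 3 against 9.29 and 8.69 in the other Cpa3+/+ LFD arrays. Without both arrays that carried markers of other tissues its interaction was 1.40.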

How the data were processed

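Total RNA from mouse epididymal fat was hybridised to 17 Illumina arrays, each with 46237 probes. The deposited non-normalized intensity is linear, from GenomeStudio per the submitters' processing notes, and each has a detection p-value per the file headers, computed by a method that no source used here gives. The authors' normalized intensity, also linear, served as an alternative.

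Background was corrected with neqc (limma 3.58.1, R 4.3.3, offset 16) and arrays were quantile normalized on the log2 scale, computed here from the deposited intensity. A probe was kept if 2 or more arrays had a detection p under 0.05, and each gene was read from its brightest kept probe (17166 genes). A model of 6 group means was fitted to 17 arrays with limma (11 residual, 3.34 prior degrees of freedom) and adjusted by Benjamini-Hochberg over all genes. Exclusion of a size used 2 one-sided moderated tests. An "at least" fold sets the detected group against the lowest detected value of each array (log2 4.33 to 4.42).

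Members and the 34 gene lists were chosen with earlier results of these data known. Genes were named by rule: the 5 smallest interaction p, the 10 largest common rises and falls with no overlap between diets, 5 diet genes each by smallest interaction p and by interval closest to 0, up to 4 members per list by size of the common effect, list members with an unadjusted interaction p below 0.05, and mast cell genes. Promoters matched 11973 genes by symbol. The pipeline was tested on simulated data. Array number limits the precision. Files gave no batch. Alternatives covered normalization, filter, probe choice, variance model, array weights, groups fitted, replicate block and each array left out.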

Additional observations from a re-analysis of the deposited data

Results flagged for a closer look

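In 4 named genes every array of a genotype moved with the diet in the direction opposite to the other genotype. Their interactions were tested and did not pass (limma adjusted p of 0.931 for Olfr763 and 0.998 for the others). The odorant receptor gene Olfr763 had an interaction of -1.33 and was the only gene past the threshold in both genotypes with opposite signs, at -0.64 in Cpa3Cre/+ and 0.70 in Cpa3+/+. It was detected on 0 of 3 Cpa3Cre/+ HFD and 1 of 3 Cpa3+/+ LFD arrays. Slc16a1, the monocarboxylate transporter MCT1, had 1.17 and was detected on 0 of 3 Cpa3Cre/+ LFD and 0 of 2 Cpa3+/+ HFD arrays. Fcer1a had -1.60 and was detected on 0 of 3 Cpa3Cre/+ HFD arrays. Tek had -1.09 and was detected on all 11 arrays.

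The 5896 kept probes without a gene symbol entered no comparison above. By limma, adjusted over these probes alone, 142 of them passed in Cpa3Cre/+ (2.41%, against 9.10% of genes) and 66 in Cpa3+/+ (1.12%, against 4.65%), and 0 passed the interaction, with 234 at an unadjusted p below 0.05.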

How the results depend on the processing

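No gene passed the interaction under any of the 21 alternatives, and the signs of 110 of the 152 named interactions held in all. The 1261 diet genes with a 2-fold difference excluded became 2385 with the deposited normalized values, 797 with the 4 Cpa3 groups alone in the fit, and 317 to 1188 with 1 array left out. The 1.5-fold limit, which excluded 0 diet genes, excluded 1225 with the deposited normalized values and 177 with no detection filter. All genes with a 2-fold difference excluded numbered 8827, and 15399 with the deposited values, 15000 with no filter and 5772 with the stricter detection filter. The filter also sets how many genes are tested, 17166 in the main fit, so counts under other filters are not directly comparable. Genes that enter with no filter are those detected on fewer than 2 arrays. The r of the diet effects over all genes, 0.682, was 0.748 with the deposited values, 0.723 with both arrays that carried markers of other tissues left out (chosen after seeing the data), and 0.594 to 0.682 with 1 left out. The 626 genes past the threshold in both genotypes numbered 208 to 661. Calls in Cpa3+/+ were 798, against 495 with the 4 groups alone. The median interaction of diet genes that rose, 0.14, was 0.26 with median scaling and 0.087 to 0.21 with 1 array left out, and that of genes that fell, -0.10, was 0.036 and -0.15 to 0.0083. Relative to the all-gene median under that scaling, these were 0.16 and -0.070. The mast cell median of -0.50 was -0.35 with the deposited values, -0.30 with both arrays left out, and -0.84 to -0.27 with 1 left out. The cell division median of 0.35 was 0.18 with the deposited values and 0.58 with median scaling. The cause of these shifts was not tested.

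Replicate numbers are shared between groups, but same-numbered arrays did not deviate together (6 of 15 pairs over 0.1, r from -0.31 to 0.25). With a replicate block, 0 genes passed the interaction, 1183 diet genes had a 2-fold difference excluded, r was 0.678, 560 calls were shared, and the medians were 0.16 for rises, -0.063 for falls, 0.50 for general macrophages and -0.56 for mast cells. The KitW/Wv interaction count of 152 was 96 with the block, 89 with median scaling, 268 with array weights and 352 with both arrays left out. The 2 Cpa3+/+ HFD arrays limit the precision most.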
